A study of Mus musculus and Homo sapiens with 28 samples.

Results

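Renca tumours labelled as given VE822 were compared with Renca tumours labelled untreated, among libraries whose genotype label is wild type (WT). The 13 libraries were chosen by their labels, 6 labelled WT VE822 and 7 labelled WT untreated, of 24 Renca libraries and 28 libraries in the series. Every row of the mouse table was used, 46078 Ensembl genes, of which 15916 had a mean level high enough to test.

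Renca is an established mouse renal carcinoma line. For both groups, Renca cells carrying no stated modification were placed in Matrigel under the skin of the back, and treatment began once tumours measured about 100 mm3. The VE822 group received 60 mg/kg by oral gavage on 5 days of each week, and the other group was left untreated, with no vehicle named. The tissue is labelled kidney although the tumours were subcutaneous, and the labels give no strain, age, sex, tumour size at harvest or length of treatment. The labels do not say that each library is a separate mouse, so the p-values measure a spread between libraries, which may be partly technical. That spread was pooled over all 24 Renca libraries, including 11 labelled SETD2 KD.

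VE822, also known as berzosertib, inhibits ATR, the kinase that senses single-stranded DNA at stalled replication forks. ATR acts largely through CHK1 to hold back cell cycle entry and late origin firing, and its inhibition leaves cells to divide with unfinished replication. DNA that reaches the cytosol is sensed by cGAS, which signals through STING to interferon genes. A bulk tumour library also holds RNA of infiltrating immune cells, stroma and skin muscle.

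Setd2, the H3K36 methyltransferase after which the other genotype label of the series is named, was examined first. Its lowest, median and highest rlog values were 9.58, 10.10 and 10.28 in libraries labelled WT VE822, against 10.74, 10.79 and 10.91 in libraries labelled WT untreated. The groups did not overlap, although both carry the WT label. Rlog is a regularised log2 value in which differences of weakly counted genes are shrunk towards 0, and all levels and differences below are on this scale. The Setd2 difference, VE822 minus untreated, was -0.80 ± 0.09 (SE, adjusted p = 1.19e-06, limma). In the libraries labelled SETD2 KD, Setd2 ranged from 9.42 to 9.96 under the VE822 label and from 10.70 to 10.88 under the untreated label. Setd2 thus went with the treatment label under both genotype labels, and every direction below is one between libraries as labelled. Of 24 genes tested that write, erase or read H3K36 methylation, 0 were higher and 4 lower (16.7%, against 17.5% of all genes), and the count was 1 lower without VE822 replicate 2 and in the refits, described below, without muscle-rich or adipocyte-rich libraries.

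The tumour line's own markers were present in all 13 libraries. Pax2 and Pax8, transcription factors of renal epithelium, ranged from 9.30 to 9.71 and 10.76 to 11.37 in libraries labelled VE822, against 9.71 to 10.10 and 11.25 to 11.44 in libraries labelled untreated. Vim, which encodes the mesenchymal filament vimentin, had values of 15.52 to 16.03 and 15.84 to 16.22 (difference -0.19, adjusted p = 0.0705, and -0.30, adjusted p = 0.0358, without the 4 libraries richest in muscle transcripts). Lhx1, a regulator of early nephron formation, was low throughout, at 5.19 to 6.05 and 5.04 to 6.01.

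The libraries of each group also differed in Y-linked, Xist, muscle and adipocyte transcripts. Ddx3y, a Y-linked gene, ranged from 6.21 to 6.68 in 4 VE822 libraries (replicates 2, 4, 5 and 6) and from 6.35 to 6.47 in 3 untreated libraries (replicates 5, 6 and 7). In the remaining 2 VE822 and 4 untreated libraries it was at 3.86 to 3.92, and Xist was at 8.77 to 9.92 there against 5.74 to 5.89 in the libraries with Y-linked transcripts. Skeletal muscle transcripts were highest in VE822 replicates 1, 2 and 4 (list means 8.86, 7.0 and 7.52) and in untreated replicate 4 (6.51), against 4.98 to 5.44 in the other libraries. Adipocyte transcripts were highest in VE822 replicates 3, 4 and 5 (list means 7.79, 8.04 and 7.68) and in untreated replicates 1 and 3 (8.07 and 7.94), against 5.60 to 5.99 in the other libraries. The results below were refitted without the 4 muscle-rich libraries, without the 5 adipocyte-rich libraries, and within the libraries with and without Y-linked transcripts, and a list count of 2 or more is given again where either of the first 2 refits or leaving out 1 library moved it by over 1.5 times. The median rlog per library was 9.13 to 9.21, and the sequencing depth is unknown. The median SD over genes was 0.154 in VE822 libraries and 0.106 in untreated libraries, and it was larger in VE822 libraries for 77.7% of genes.

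The VE822 and untreated labels separated a large share of the transcriptome by small amounts. Of 15916 genes tested, 5530 (34.7%) passed an adjusted p of 0.05, 2737 higher (17.2%) and 2793 lower (17.5%) in libraries labelled VE822. Changes of at least 2-fold were mostly increases, 240 genes (1.51%) against 42 decreases (0.264%). All VE822 libraries lay above all untreated libraries for 995 genes (6.25%) and below them for 1248 (7.84%). The median difference over all genes tested was 0.01. The count was 3418 without the 4 muscle-rich libraries, 1088 within the libraries with Y-linked transcripts and 3353 within those without. Of the 5530 genes, 5528 kept their sign in the first of these fits and 5489 (99.3%) in both of the others. Each fit used a part of the libraries in which the genes were called, so this agreement is largely built in. Without the 5 adipocyte-rich libraries the count was 3101.

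**Figure D1:**
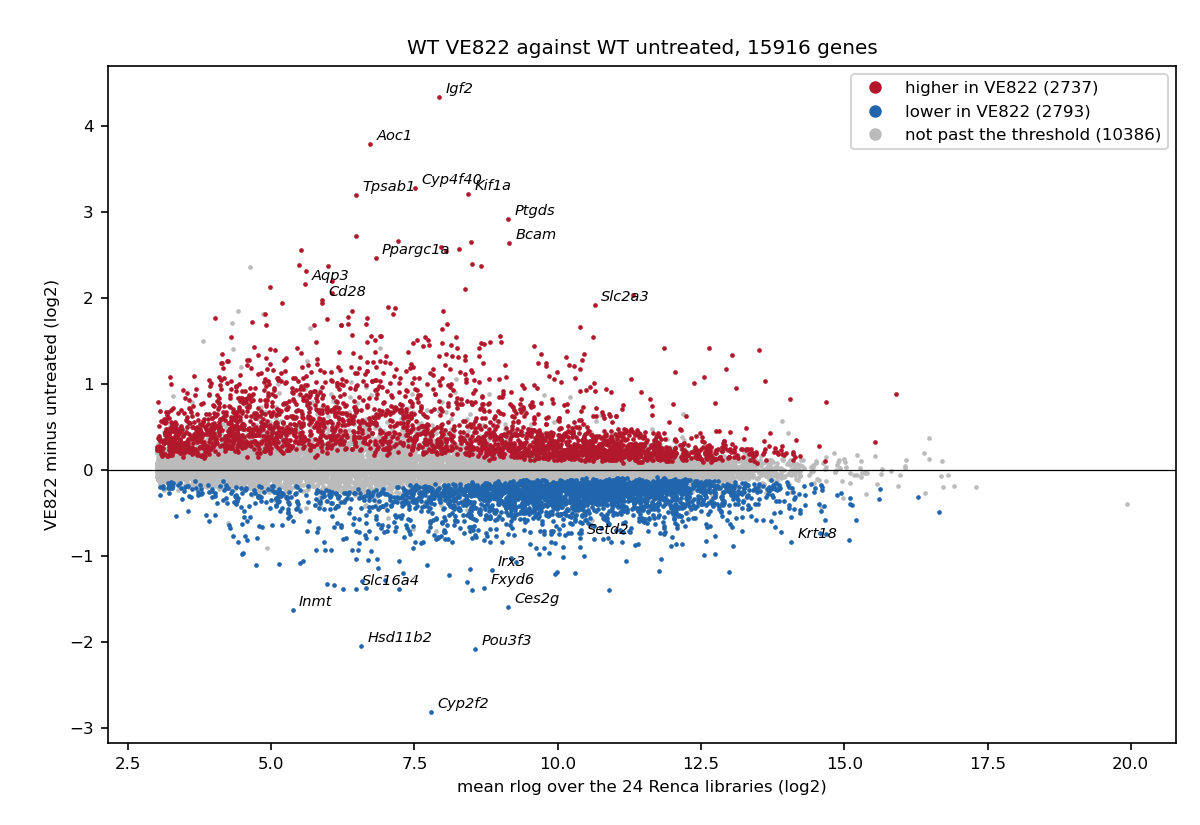
Difference of the VE822 minus the untreated label (y axis, log2) against the mean rlog over the 24 Renca libraries (x axis, log2) for 15916 genes. Red points are the 2737 higher and blue points the 2793 lower genes, and the increases of Igf2 and Aoc1 (4.34 and 3.79) exceed the fall of Cyp2f2 (-2.82) in size.

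The 4 largest increases among the genes named by rule were those of Igf2, Aoc1, Cyp4f40 and Kif1a. Igf2, the fetal growth factor that signals through the type 1 IGF receptor, had rlog values of 9.10, 10.55 and 11.13 (lowest, median, highest) in libraries labelled VE822, against 5.76, 5.94 and 6.03 in libraries labelled untreated. The groups were far apart, and the VE822 libraries spread much wider than the untreated ones. The difference was 4.34 ± 0.53 (adjusted p = 2.04e-06), the largest of the genes named here. Igf2 (chr7:142650766-142666816, minus strand, GRCm38) has an antisense neighbour, and the strandedness of the counting is not given in the sources used here.

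Aoc1 encodes diamine oxidase, which breaks down histamine and putrescine. Its values were 7.76, 8.89 and 9.78 in VE822 libraries and 4.98, 5.02 and 5.12 in untreated libraries, a difference of 3.79 ± 0.45 (adjusted p = 1.14e-06). Tpsab1, a tryptase of mast cell granules, stood at 7.90, 8.26 and 8.99 in VE822 libraries, against 4.82, 4.98 and 5.76 in untreated libraries (3.20 ± 0.43). Neither gene's groups overlapped. Tpsb2, the other mast cell tryptase, rose by 1.13 (adjusted p = 0.00234), and of 6 mast cell markers tested only these 2 passed (Tpsb2 at 1.02 with adjusted p = 0.0549 without the muscle-rich libraries), while 10 of 16 listed markers, among them Cpa3 and Cma1, were below the level tested. Ptgds, a prostaglandin D2 synthase, was at 10.18, 10.48 and 11.67 in VE822 libraries and at 7.37, 7.74 and 7.92 in untreated libraries (2.92 ± 0.46). Hpgds, the other prostaglandin D2 synthase, rose by 0.51, Ptgis, the prostacyclin synthase, rose by 1.28, and Ptgs1, the constitutive cyclooxygenase, fell by 0.49. Of 18 genes of amine metabolism, 3 were higher (16.7%, against 17.2% of all genes) and 5 lower, with 2 and 3 without the muscle-rich libraries and 1 and 4 without the adipocyte-rich libraries. Of 22 prostaglandin and leukotriene enzymes, 4 were higher (18.2%) and 5 lower. That list had 7 higher without VE822 replicate 6, 3 lower without the muscle-rich libraries, and 2 higher without the adipocyte-rich libraries.

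Ppargc1a, the coactivator that drives mitochondrial gene expression, was at 7.74, 8.15 and 8.55 in VE822 libraries, against 5.58, 5.61 and 5.87 in untreated libraries (2.46 ± 0.23, adjusted p = 4.63e-08). Ndufa4l2, a hypoxia-responsive homologue of a cytochrome oxidase subunit, was at 8.85, 10.07 and 10.66, against 7.17, 7.32 and 7.62 in untreated libraries (2.66 ± 0.28). Both genes were fully separated between the groups, and without the muscle-rich libraries the differences were 2.78 and 2.42.

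Other genes with non-overlapping increases had roles in adhesion, transport and RNA binding. Bcam, a laminin-binding adhesion molecule, reached 10.48 to 11.17 in VE822 libraries, against 7.85 to 8.50 in untreated libraries (2.64). Kif1a, a kinesin of axonal vesicle transport, was at 9.57 to 10.62 in VE822 libraries and at 6.68 to 7.22 in untreated libraries (3.21). Cyp4f40, a cytochrome P450, was at 8.76 to 10.13 in VE822 libraries and at 5.95 to 6.48 in untreated libraries (3.28). For each of these 3 genes the lowest VE822 library lay well above the highest untreated library. Slc2a3, the high-affinity glucose transporter GLUT3, was at 10.94 to 12.06, against 8.93 to 10.44 (1.92 ± 0.41), and its difference did not pass within the libraries with Y-linked transcripts (1.6, adjusted p = 0.197). Igf2bp3, an RNA-binding protein named for its binding of Igf2 mRNA, rose by 2.20, and Aqp3, a water and glycerol channel, by 2.16.

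The largest decrease was that of Cyp2f2, a cytochrome P450 best known from club cells of the airway. Its values were 5.82, 6.21 and 7.13 in VE822 libraries, against 8.26, 8.87 and 9.98 in untreated libraries (-2.82 ± 0.25, adjusted p = 2.80e-08). Hsd11b2, which inactivates glucocorticoids in the distal nephron, was at 5.24, 5.44 and 6.0 in VE822 libraries and at 6.95, 7.75 and 8.38 in untreated libraries (-2.05 ± 0.22). Pou3f3, a transcription factor of the distal nephron, was at 7.01, 7.16 and 7.96, against 9.08, 9.36 and 9.59 in untreated libraries (-2.08 ± 0.27). None of these groups overlapped. The smallest p was shared by 9130008F23Rik, which rose by 1.39, and Slc16a4, of the monocarboxylate transporter family, at 5.52, 5.80 and 5.92 in VE822 libraries and 6.88, 7.17 and 7.38 in untreated libraries (-1.39 ± 0.08, adjusted p = 8.25e-11). Fxyd6, a regulator of the sodium pump, fell by 1.38, Ramp2, a partner of the adrenomedullin receptor, by 0.98, and Ptprr, a phosphatase of MAP kinases, by 1.37. Among the 10 protein-coding genes with the smallest p, 9130008F23Rik and Selplg, the P-selectin ligand of leukocytes (1.03), were higher and the others lower.

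**Figure D2:**
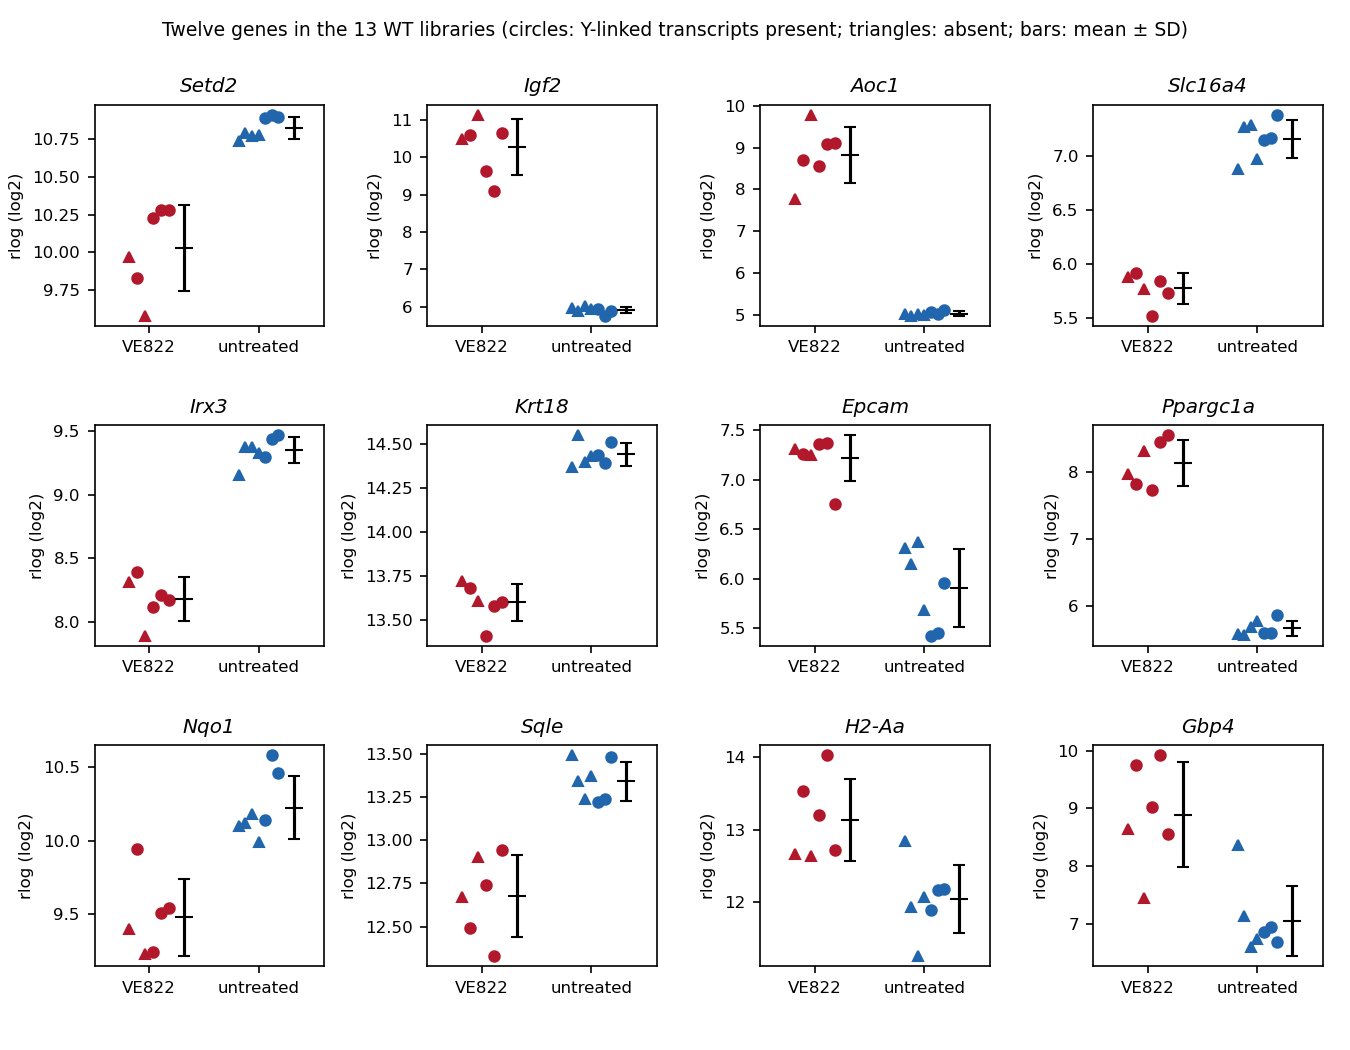
Rlog values (y axes, log2) of 12 genes in each of the 6 VE822 libraries (red, left) and 7 untreated libraries (blue, right) with the WT label. Circles are libraries with Y-linked transcripts, triangles those without, and bars the mean ± SD. The groups are separate for Setd2, Igf2, Aoc1, Slc16a4, Irx3, Krt18, Epcam, Ppargc1a, Nqo1 and Sqle, while H2-Aa and Gbp4 overlap through untreated replicate 1.

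The drug's own pathway changed little at the level of transcripts. Atr itself was at 8.78, 9.09 and 9.32 in VE822 libraries and at 8.90, 9.16 and 9.25 in untreated libraries, which overlapped fully (-0.06 ± 0.09, adjusted p = 0.630). Atrip, its partner, was below the level tested. Chek1, the kinase that ATR activates, was at 8.20, 8.56 and 8.74, against 8.66, 8.77 and 8.93 (-0.25 ± 0.08, adjusted p = 0.0221). That call was lost without VE822 replicate 2 (-0.19, adjusted p = 0.0727) and without the muscle-rich libraries (-0.09, adjusted p = 0.552). Of 19 genes of the ATR and CHK1 axis, 2 were higher (10.5%, against 17.2% of all genes) and 3 lower (15.8%, against 17.5%). The higher count was 1 without the adipocyte-rich libraries and on leaving out any 1 of VE822 replicates 1, 3 and 6 or untreated replicates 1, 3, 4, 5 and 7, and without the muscle-rich libraries 1 was higher and 1 lower. Of the 2, Cdc25a, a phosphatase that CHK1 marks for destruction, rose by 0.34 with no overlap, at 9.13 to 9.31 in VE822 libraries against 8.80 to 8.93 in untreated libraries.

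Replication, repair and cell cycle genes moved in both directions by under 1 log2 unit. Cdc45, part of the replicative helicase, was at 10.91, 11.01 and 11.22 in VE822 libraries and at 10.51, 10.59 and 10.62 in untreated libraries (0.45 ± 0.05, adjusted p = 4.74e-07). Mcm4, another part of the same helicase, went the other way, at 12.66, 12.72 and 12.82, against 13.07, 13.12 and 13.20 (-0.41 ± 0.04, adjusted p = 8.02e-08). Neither gene's groups overlapped, and of 23 origin and helicase genes 3 were higher and 3 lower (13.04% each, against 17.2% and 17.5% of all genes). The counts were 3 and 1 without the muscle-rich libraries and 1 and 3 without the adipocyte-rich libraries. Of 31 homologous recombination and Fanconi genes, 1 was higher and 7 were lower (22.6%, against 17.5% of all genes), among them Slx4, a nuclease scaffold (-0.43). That lower count was 4 without VE822 replicate 2 and 3 without the muscle-rich libraries. Prkdc, the catalytic subunit of the end-joining kinase DNA-PK, fell by 0.52 and Atm, the kinase of double-strand breaks, by 0.40. The call of Atm was lost without the muscle-rich libraries. Cdkn2b and Cdkn2a, neighbouring inhibitors of CDK4 and CDK6, fell by 0.72 and 0.45 without overlap, and Ccne1, cyclin E1, rose by 0.42. Of 27 p53 targets, 4 were higher (14.8%, against 17.2% of all genes) and 6 lower (22.2%, against 17.5%), with 2 and 7 without the muscle-rich libraries and 3 and 1 without the adipocyte-rich libraries. They include Fas, the death receptor (0.47, not called without the muscle-rich libraries), and Sesn1, a stress-induced regulator of mTORC1 (-0.68, and -0.42 with chromosome medians removed).

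Most MHC class II and T cell genes tested were higher in libraries labelled VE822. H2-Aa, the alpha chain of the MHC class II molecule I-A, was at 12.64, 12.97 and 14.03 in VE822 libraries, against 11.26, 12.08 and 12.84 in untreated libraries. H2-Eb1, a beta chain of I-E, was at 12.13, 12.48 and 13.57, against 10.74, 11.51 and 12.38. The 2 genes' groups overlapped through 1 library, untreated replicate 1. The differences were 1.08 ± 0.23 (adjusted p = 0.000735) and 1.14 ± 0.24 (adjusted p = 0.000783). Ciita, the transactivator on which class II transcription depends, rose by 1.00, and Cd74, the invariant chain, by 0.82. Of 12 class II genes tested, 10 were higher (83.3%, against 17.2% of all genes) and 0 lower, with a median of 0.83 against 0.01 over all genes. Of 22 class I presentation genes, 7 were higher (31.8%) and 0 lower, with a median of 0.21, and the count was 11 without VE822 replicate 1, 4 without the muscle-rich libraries and 2 without the adipocyte-rich libraries.

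The same differences were taken within the libraries with and without Y-linked transcripts. Within the libraries with Y-linked transcripts the H2-Aa difference was 1.29 (adjusted p = 0.0282), and within those without it was 0.62 (adjusted p = 0.185), with 6 and 1 of the 12 class II genes called. Cd3e, a signalling chain of the T cell receptor, rose by 1.07 (adjusted p = 0.00142), by 1.63 (adjusted p = 0.0105) within the libraries with Y-linked transcripts, and had a difference of 0.14 (adjusted p = 0.765) within those without. Of 24 T cell genes, 20 were higher (83.3%) and 1 lower in the full comparison, 18 and 1 in libraries with Y-linked transcripts and 3 and 1 in those without. Whether the effect differs between the 2 sets was not tested, and the sets differ in size (4 against 3 libraries, and 2 against 4). Cd28, the costimulatory receptor of T cells, and Cd2, an adhesion receptor of T cells, had closer values in the 2 sets. Cd28 was at 6.03 to 7.57 in VE822 libraries and at 4.68 to 5.02 in untreated libraries (1.98), with differences of 1.92 and 2.0 within the 2 sets, both called. Cd2 was at 5.85 to 6.62, against 5.04 to 5.45 (1.02), with 0.95 and 1.11 within the sets, both called.

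The promoters of the class II genes are shown because these genes moved together. Class II promoters are known to carry a Y box, a CCAAT element bound by NF-Y, beside the X box. The windows hold the 250 bases before the RefSeq start (GRCm38.p6), 5′ to 3′ on the gene's strand, with CCAAT or its reverse complement ATTGG in capitals. The H2-Aa window lies at chr17:34287824-34288073 on the minus strand and the H2-Eb1 window at chr17:34305617-34305866 on the plus strand.
H2-Aa: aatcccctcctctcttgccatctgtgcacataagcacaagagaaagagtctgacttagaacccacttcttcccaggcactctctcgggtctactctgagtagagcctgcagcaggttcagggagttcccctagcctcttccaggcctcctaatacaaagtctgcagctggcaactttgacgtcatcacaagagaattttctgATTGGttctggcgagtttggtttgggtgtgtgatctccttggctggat
H2-Eb1: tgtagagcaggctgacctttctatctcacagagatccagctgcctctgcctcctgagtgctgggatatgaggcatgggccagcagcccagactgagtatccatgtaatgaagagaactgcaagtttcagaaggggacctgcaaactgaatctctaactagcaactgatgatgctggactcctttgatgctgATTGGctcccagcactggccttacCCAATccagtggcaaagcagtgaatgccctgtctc
Both windows held the letters near the start, with the first base of the motif at -48 in H2-Aa and at -59 and -35 in H2-Eb1. CCAAT on either strand was found in 8 of 10 class II genes with a window (80.0%) and in 11120 of 32851 windows of all genes (33.85%). A class II gene was counted if any of its windows matched, but all genes by single windows, so the shares are not like for like. H2-Ab1, Cd74 and Ciita had no entry. A match of letters is a description and does not show that a factor binds there.

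Interferon-inducible genes varied widely between libraries. Gbp4, a guanylate-binding protein, was at 7.45, 8.84 and 9.92 in VE822 libraries, against 6.61, 6.87 and 8.36 in untreated libraries (1.84 ± 0.34, adjusted p = 0.000189). Cxcl9, a chemokine that attracts T cells through CXCR3, was at 7.75, 9.41 and 10.88, against 6.32, 6.62 and 8.97 (2.57 ± 0.48, adjusted p = 0.000239). In both genes untreated replicate 1 reached into the range of the VE822 libraries. Within the libraries with Y-linked transcripts the differences were 2.48 and 3.59, both called, and within those without they were 0.84 (adjusted p = 0.242) and 0.95 (adjusted p = 0.329). Iigp1, an immunity-related GTPase, rose by 1.24 (adjusted p = 0.0271), but its difference was -0.11 (adjusted p = 0.933) in the libraries without Y-linked transcripts. Its call was also lost on leaving out any 1 of VE822 replicates 2 and 5 or untreated replicates 3, 4 and 7 (1.00 to 1.17). Of 20 interferon-inducible GTPases, 11 were higher (55.0%) and 0 lower, and the count was 16 in libraries with and 0 in libraries without Y-linked transcripts. It ranged from 6 without VE822 replicate 2 or 5 to 17 without VE822 replicate 3, was 7 without untreated replicate 3 or 4, and was 4 without the muscle-rich libraries. Guanylate-binding proteins, immunity-related GTPases and MHC genes are families of similar sequence, and how reads shared between members were assigned is not given in the sources used here.

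The genes of cGAS and STING themselves did not pass. Cgas, the cytosolic DNA sensor, was at 5.99, 6.19 and 6.25 in VE822 libraries and at 5.77, 5.94 and 6.28 in untreated libraries (0.20 ± 0.12, adjusted p = 0.208). Tmem173, which encodes STING, was at 11.38, 11.52 and 11.58, against 11.44, 11.54 and 11.65 (-0.02 ± 0.07, adjusted p = 0.848). The groups overlapped for both. Of 30 type I interferon-stimulated genes, 5 were higher (16.7%, against 17.2% of all genes) and 2 lower. The higher count was 3 without VE822 replicate 4 or 6 and without the muscle-rich libraries, and 2 without the adipocyte-rich libraries, where 0 were lower. The lower count was 1 without VE822 replicate 3 or untreated replicate 7. Of 17 genes of cytosolic DNA sensing, 2 were higher (11.8%) and 1 lower. The higher count was 1 on leaving out any 1 of VE822 replicates 2, 4, 5 and 6 or untreated replicates 2 to 7, 1 without the muscle-rich libraries and 0 without the adipocyte-rich libraries.

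Among immune signals and cell markers, the share of genes that were higher varied between lists, and differences between lists were not tested. Of 35 TNF family ligands and receptors, 15 were higher (42.9%, against 17.2% of all genes) and 1 lower, against 7 and 2 without the muscle-rich libraries and 2 lower without untreated replicate 1 or 6. The higher ones included Eda2r, the receptor of ectodysplasin A2 (0.98, and 0.51 with adjusted p = 0.102 without the muscle-rich libraries), Ltb, a lymphotoxin chain (0.98), and Tnfrsf18, the costimulatory receptor GITR (0.83). Of 19 chemokine receptors, 8 were higher (42.1%) and 0 lower, and 4 were higher without the adipocyte-rich libraries, with Ccr7, the homing receptor of lymph node-bound cells, at 8.50 to 9.0 in VE822 libraries and 6.84 to 8.0 in untreated libraries (1.17, no overlap). Ccl17, a ligand of CCR4 made by dendritic cells, was at 8.24 to 8.85, against 6.80 to 8.04 (1.22, no overlap). Of 29 chemokine ligands, 6 were higher (20.7%) and 2 lower, with 3 and 4 without the muscle-rich libraries, 5 and 0 without the adipocyte-rich libraries and a lower count of 0 to 4 with 1 library left out. Of 10 B cell and immunoglobulin genes, 4 were higher (40.0%) and 1 lower. That higher count was 1 without VE822 replicate 2, without the muscle-rich libraries and without the adipocyte-rich libraries, and 2 without VE822 replicate 4 or 5 or any 1 of untreated replicates 2 to 6. Il2rg, the gamma chain shared by several interleukin receptors, rose by 0.77, likewise without overlap. Of 21 macrophage and monocyte markers, 1 was higher, Mertk, a receptor for dying cells (0.35, and 0.22 with adjusted p = 0.235 without the muscle-rich libraries), and 4 were lower (19.05%, against 17.5% of all genes). The lower ones included Cd163, the haemoglobin scavenger receptor (-0.84), Mrc1, the mannose receptor (-0.36, not called without the adipocyte-rich libraries), and Cd14, the endotoxin co-receptor (-0.40). The macrophage and monocyte list as a whole did not shift, with a median of 0.0. Its mean was 11.14 to 11.76 in VE822 libraries and 11.45 to 11.69 in untreated libraries. Fewer cells of a type and less RNA per cell cannot be told apart in bulk libraries.

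**Figure D3:**
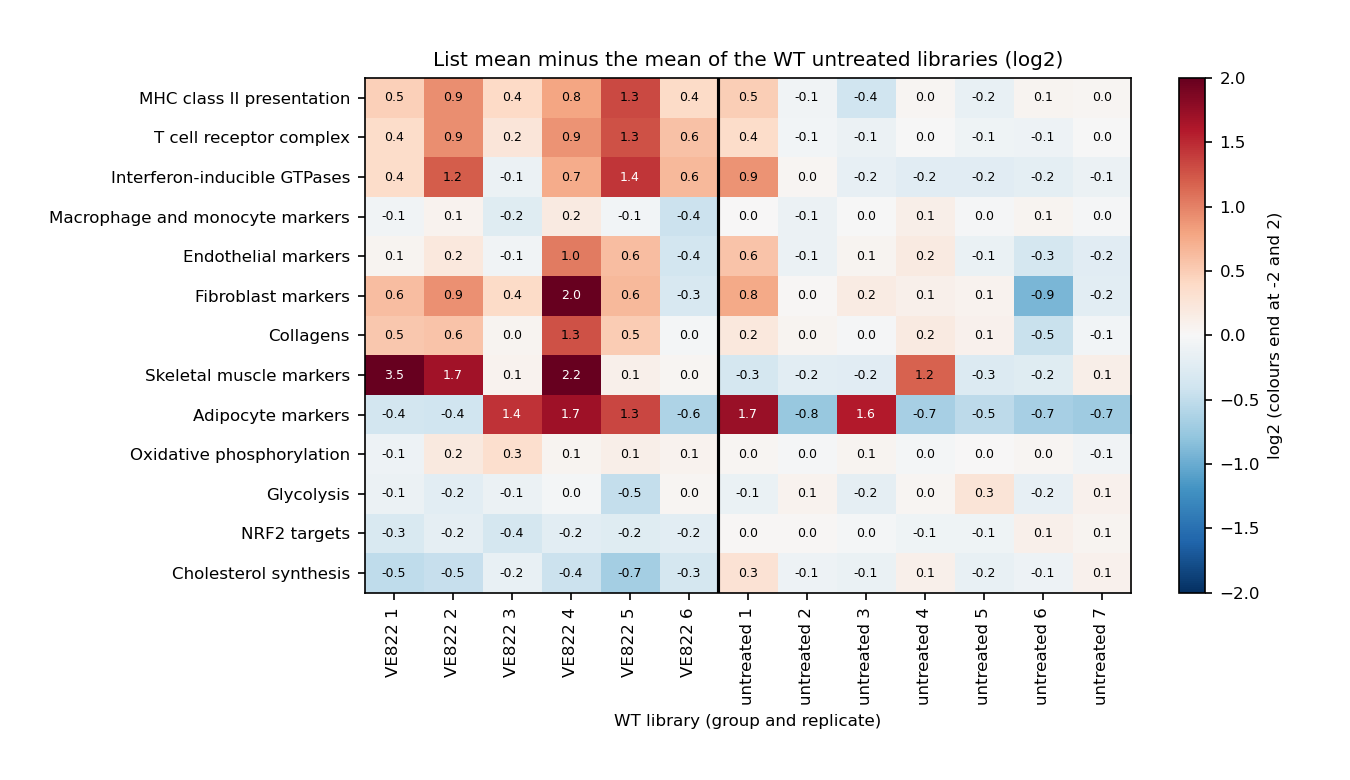
Mean rlog of 13 gene lists in each WT library (columns, VE822 left of the line, untreated right), as the difference from the mean of the untreated libraries (log2, colours end at -2 and 2). The NRF2 target and cholesterol lists are lower in every VE822 library, muscle transcripts are high in VE822 1, 2 and 4 and untreated 4, and untreated 1 stands high for the class II, T cell and GTPase lists.

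Counts of stromal genes depended on which libraries were included, mostly on the muscle-rich and adipocyte-rich sets. Col1a1, the alpha 1 chain of type I collagen, was at 13.46, 14.59 and 16.21 in VE822 libraries, against 11.51, 13.53 and 13.73 in untreated libraries (1.39 ± 0.40, adjusted p = 0.00925). The groups overlapped, with VE822 replicate 4 highest and untreated replicate 6 lowest, and without the muscle-rich libraries the difference was 0.76 (adjusted p = 0.229). Of 33 collagen genes, 13 were higher (39.4%, against 17.2% of all genes) and 2 lower, but 8 were higher without untreated replicate 6, 1 without the muscle-rich libraries and 4 without the adipocyte-rich libraries. The lower count was 1 on leaving out any 1 of VE822 replicates 1 to 4 or untreated replicates 2, 3, 4 and 7, and also without the adipocyte-rich libraries, and 0 without the muscle-rich libraries. Col7a1, the collagen of anchoring fibrils, and Mmp13, a collagenase, were less dependent on those libraries, at 1.42 and 1.45 in all libraries and 1.12 and 1.04 without them, all called. Of 15 fibroblast markers, 5 were higher (33.3%) and 1 lower, but 8 were higher without VE822 replicate 6, 0 without the muscle-rich libraries and 1 without the adipocyte-rich libraries. Of 15 endothelial markers, 1 was higher (6.67%, against 17.2% of all genes), and 2 without VE822 replicate 6. The part of muscle, adipocyte and Y-linked transcripts in the other results was not tested beyond these refits.

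Most genes of cholesterol synthesis were lower in libraries labelled VE822. Sqle, squalene epoxidase, was at 12.33, 12.70 and 12.94 in VE822 libraries, against 13.22, 13.34 and 13.49 in untreated libraries (-0.66 ± 0.08, adjusted p = 1.13e-06), with no overlap. Idi1, isopentenyl diphosphate isomerase, was at 8.02, 8.32 and 8.86, against 8.77, 9.04 and 9.61, overlapping slightly (-0.77 ± 0.14, adjusted p = 0.000245). Of 20 genes of the pathway, 16 were lower (80.0%, against 17.5% of all genes) and 0 higher, with a median of -0.49, and 7 had non-overlapping groups (7.84% of all genes were separated in this direction). Lss, lanosterol synthase, fell by 0.66, or by 0.40 with chromosome medians removed, since it lies on chromosome 10. Hmgcs1, the cytosolic synthase that feeds the pathway, fell by 0.49 at 10.62 to 11.05 in VE822 libraries, against 11.06 to 11.55 in untreated libraries. Hmgcs1 and Cd74 were added to the genes named by rule after their values were seen.

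Some regulators of the pathway were lower too. Srebf2, the transcription factor of sterol synthesis, was at 13.33, 13.50 and 13.71 in VE822 libraries and at 13.90, 13.94 and 14.15 in untreated libraries (-0.50 ± 0.06, adjusted p = 1.03e-06, no overlap). Stard4, a sterol carrier, fell by 0.88 without overlap. Of 21 genes of sterol control and uptake, 9 were lower (42.9%, against 17.5% of all genes) and 3 higher, with 4 and 0 without the muscle-rich libraries and 6 and 0 without the adipocyte-rich libraries. Of 21 fatty acid synthesis genes, 9 were lower (42.9%) and 2 higher, with Scd2, a stearoyl-CoA desaturase (-0.81), Fads2, the delta-6 desaturase (-0.78), and Acss2, the cytosolic acetyl-CoA synthetase (-0.50), among the lower and Dgat2, which makes triglycerides (0.93), among the higher. Without the adipocyte-rich libraries 8 were lower and 2 higher, and the differences were -0.78 for Scd2, -0.70 for Fads2, -0.44 for Acss2 and 1.04 for Dgat2, all called. Without the muscle-rich libraries 6 were lower and 0 higher. The cholesterol list had 11 and 10 lower members within the libraries with and without Y-linked transcripts, 12 without the muscle-rich libraries and 14 without the adipocyte-rich libraries.

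Promoter windows of 2 of these genes are given because SREBP2 acts together with NF-Y at sterol promoters, as is known from cell culture. They were read as above, with CCAAT or ATTGG in capitals and also TCACCCCAC, one form of the SREBP-type motif TCACNCCAC. The Hmgcs1 window lies at chr13:119690101-119690350 and the Idi1 window at chr13:8885356-8885605, both on the plus strand.
Hmgcs1: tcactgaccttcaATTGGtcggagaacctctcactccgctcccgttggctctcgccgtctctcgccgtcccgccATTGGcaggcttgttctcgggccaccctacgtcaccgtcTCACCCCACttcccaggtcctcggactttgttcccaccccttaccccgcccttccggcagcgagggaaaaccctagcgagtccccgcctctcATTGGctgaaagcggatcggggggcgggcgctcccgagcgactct
Idi1: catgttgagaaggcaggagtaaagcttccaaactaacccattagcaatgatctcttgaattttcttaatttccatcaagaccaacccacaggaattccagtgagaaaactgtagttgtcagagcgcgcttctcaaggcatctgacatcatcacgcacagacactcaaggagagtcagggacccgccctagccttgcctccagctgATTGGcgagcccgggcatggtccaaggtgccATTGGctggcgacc
In Hmgcs1 the SREBP-type letters began at -137, between CCAAT-type letters at -237, -176 and -45. In Idi1 CCAAT-type letters began at -45 and -14. CCAAT on either strand was found in 14 of 15 cholesterol genes with a window (93.3%), against 33.85% of all windows. TCACNCCAC on either strand was found in 1 of 15 (6.67%), against 346 of 32851 (1.05%). As above, genes with any matching window are set here against single windows, so the shares are not like for like. Sqle, Fdps and Fdft1 were among those with no entry.

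Several targets of NRF2, the transcription factor of the antioxidant response, were lower. Nqo1, a quinone reductase, was at 9.23, 9.45 and 9.94 in VE822 libraries, against 9.99, 10.14 and 10.58 in untreated libraries (-0.75 ± 0.12, adjusted p = 3.82e-05). Tkt, transketolase of the pentose phosphate pathway, was at 14.14, 14.23 and 14.40, against 14.87, 14.90 and 15.22 (-0.74 ± 0.08, adjusted p = 7.72e-07). Neither gene's groups overlapped. Of 19 NRF2 targets, 9 were lower (47.4%, against 17.5% of all genes) and 0 higher, with a median of -0.19, and the list mean was 12.14 to 12.32 in VE822 libraries and 12.41 to 12.60 in untreated libraries. Taldo1, transaldolase, fell by 0.40, and Txnrd1, thioredoxin reductase, by 0.39, or by 0.13 with chromosome medians removed, as it lies on chromosome 10. Of 22 glutathione S-transferases, a family of similar sequence, 7 were lower (31.8%) and 3 higher, Gsta4 falling by 1.29 and Gstm5 by 0.70, with 5 higher without VE822 replicate 6 and 1 without either the muscle-rich or the adipocyte-rich libraries.

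Some glycolysis genes were lower and some respiration genes slightly higher. Of 24 glycolysis genes, 7 were lower (29.2%) and 0 higher, with 3 lower without the adipocyte-rich libraries, and Pgam1, phosphoglycerate mutase, was at 12.01, 12.36 and 12.72 in VE822 libraries, against 12.91, 13.16 and 13.45 in untreated libraries (-0.77 ± 0.15, adjusted p = 0.000276, no overlap). Of 21 hypoxia genes, 6 were lower (28.6%) and 0 higher, including Adm, the vasodilator adrenomedullin (-0.90), Ero1l, an oxidase of the endoplasmic reticulum (-0.58), and Ndrg1 (-0.49). Ndufa4l2, described above, is also induced by hypoxia and moved the opposite way. Of 80 oxidative phosphorylation genes, 22 were higher (27.5%, against 17.2% of all genes) and 1 lower, with a median of 0.11. The count was 13 without VE822 replicate 3 and 2 without the adipocyte-rich libraries, and within the libraries with and without Y-linked transcripts it was 2 and 5. Cox6a2, the muscle-type subunit VIa of cytochrome oxidase, rose by 1.20 without overlap, and by 1.13 without the muscle-rich libraries. Of 18 fatty acid oxidation genes, 5 were higher (27.8%, against 17.2% of all genes) and 0 lower. Acadl, long-chain acyl-CoA dehydrogenase, rose by 0.29. The count of higher ones was 9 without VE822 replicate 1 and 2 without the adipocyte-rich libraries.

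**Figure D4:**
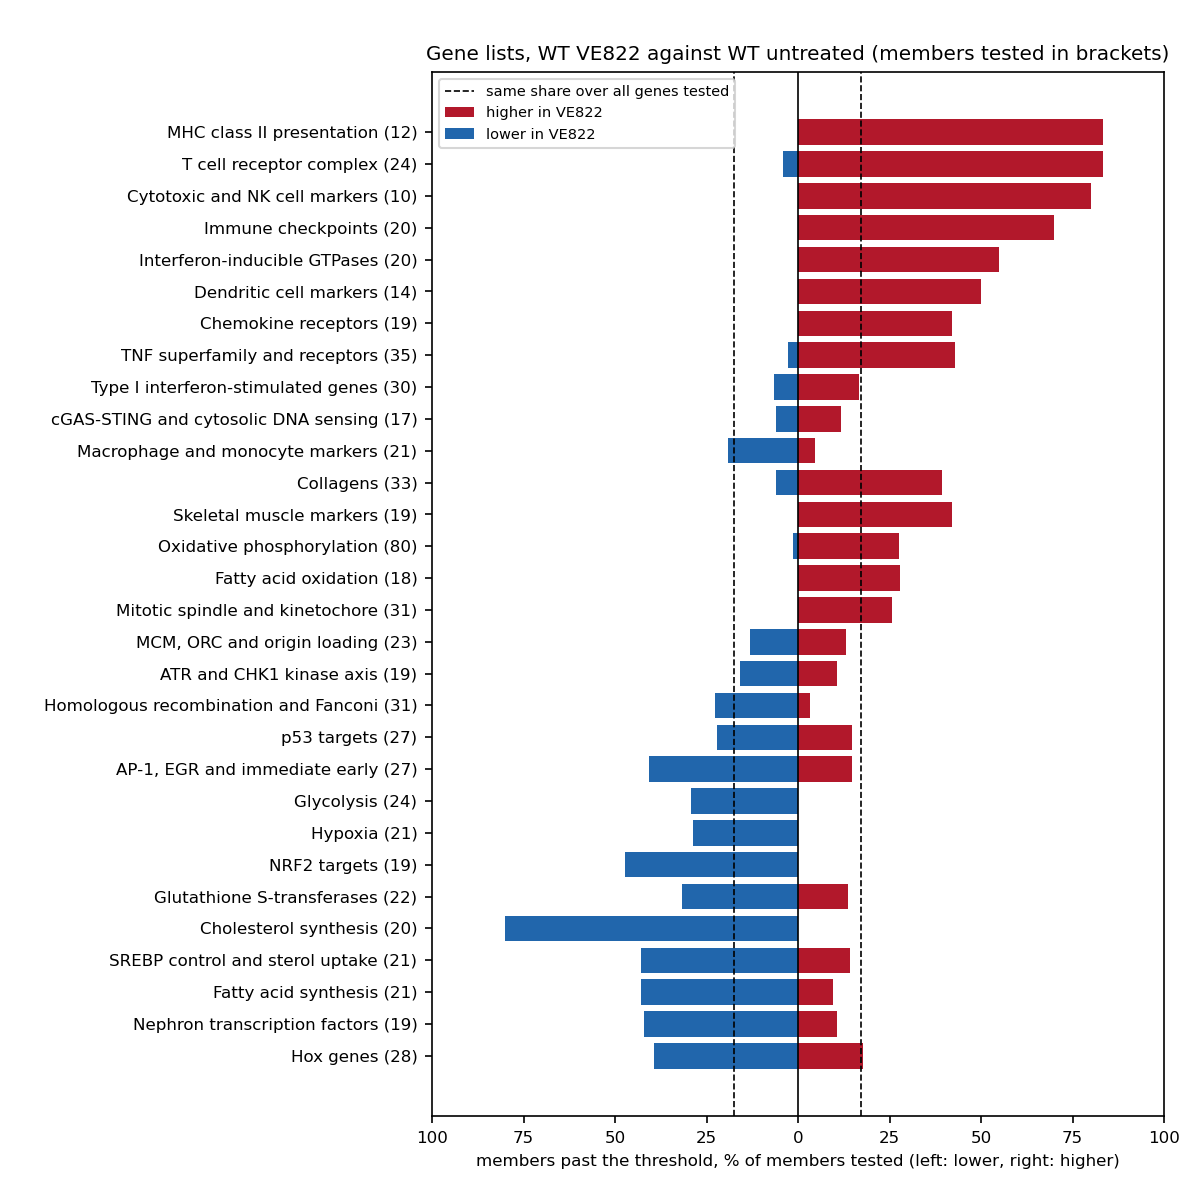
Share of the tested members of each gene list that were past the threshold (x axis, %), higher in VE822 to the right and lower to the left, with the number tested in brackets. Dashed lines mark the same shares over all genes (17.2% and 17.5%). The class II and T cell lists (83.3% higher each) lie farthest from them. The cytotoxic and NK cell list (80.0% higher) and the cholesterol list (80.0% lower) follow. The cytotoxic and NK cell count, 8 of 10, was 3 without the muscle-rich libraries and 5 without the adipocyte-rich libraries or VE822 replicate 5. It was 4 within the libraries with Y-linked transcripts and 0 within those without.

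Kidney identity and epithelial genes shifted in part. Irx3, an Iroquois transcription factor of the nephron, was at 7.89, 8.19 and 8.39 in VE822 libraries, against 9.16, 9.38 and 9.47 in untreated libraries (-1.17 ± 0.08, adjusted p = 2.88e-10). Sall1 and Emx2, regulators of early kidney development, fell by 0.72 and 0.61, and Wt1, the Wilms tumour factor, was at 8.04 to 9.22, against 6.71 to 7.66 (1.52 ± 0.34). These 4 genes had non-overlapping groups, and the rise of Wt1 did not pass within the libraries with Y-linked transcripts (1.54, adjusted p = 0.162). Of 19 nephron transcription factors tested, 8 were lower (42.1%) and 2 higher. The count of higher ones was 5 without VE822 replicate 6. Pax2, Pax8 and Cdh16, the kidney cadherin, fell by 0.40, 0.35 and 0.68. The calls of Pax8 and Cdh16 were lost without the adipocyte-rich libraries, and that of Cdh16 also without the muscle-rich libraries. Of 18 nephron segment genes tested, 7 were higher (38.9%, against 17.2% of all genes) and 5 lower (27.8%, against 17.5%), with a median of 0.11. Those counts were 4 and 6 without the muscle-rich libraries and 4 and 3 without the adipocyte-rich libraries.

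Keratin genes moved in both directions. Of 11 keratin genes tested, 5 were higher (45.5%, against 17.2% of all genes) and 4 lower (36.4%, against 17.5%), with a median of 0.37. Only 3 were higher without VE822 replicate 1 and 1 without the muscle-rich libraries, and 2 were lower without the adipocyte-rich libraries. Krt18 was at 13.41, 13.60 and 13.72 in VE822 libraries, against 14.37, 14.43 and 14.55 in untreated libraries (-0.84 ± 0.06, adjusted p = 3.68e-10). Krt8, its obligate partner in simple epithelia, was at 14.63, 14.90 and 15.01, against 15.35, 15.43 and 15.59 (-0.58 ± 0.06). Krt19, a keratin of ductal epithelia, was at 7.38, 8.79 and 9.62, against 6.94, 7.20 and 7.96 (1.46 ± 0.39, adjusted p = 0.00588), and Krt23 and Krt20 rose by 1.26 and 0.83, all 3 with overlap. Without the muscle-rich libraries Krt19 (1.18, adjusted p = 0.118) and Krt20 (0.82, adjusted p = 0.0582) did not pass. Epcam, the epithelial cell adhesion molecule, was at 6.75, 7.28 and 7.37, against 5.42, 5.95 and 6.37 (1.31 ± 0.18, adjusted p = 8.24e-06). The groups of Krt18, Krt8 and Epcam did not overlap. Of 242 solute carriers tested, 46 were higher (19.01%, against 17.2% of all genes) and 60 lower (24.8%, against 17.5%), with 27 and 45 without the muscle-rich libraries and 28 and 30 without the adipocyte-rich libraries. Among them were Slc6a13, a GABA and taurine transporter, which rose by 1.56, and Slc16a4, which fell as above. Of 28 Hox genes, 11 were lower (39.3%) and 5 higher, led by Hoxd10 (-0.75, no overlap). Without VE822 replicate 1 or untreated replicate 7, 3 were higher, and the counts were 8 lower and 3 higher without the muscle-rich libraries and 7 and 3 without the adipocyte-rich libraries.

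Growth factor and immediate early genes were also altered. Of 19 genes of the IGF axis, 6 were higher (31.6%, against 17.2% of all genes) and 2 lower (10.5%). The lower count was 1 without VE822 replicate 3 and without the muscle-rich libraries. Igf2r, the receptor that clears IGF2, rose by 0.40, Pappa2, a protease of IGF-binding proteins, by 0.56, and Igfbp6, which prefers IGF2, was at 11.70 to 11.99 in VE822 libraries, against 12.19 to 12.62 in untreated libraries (-0.54, no overlap). Of 36 BMP and TGF-beta ligands and antagonists tested, 9 were higher (25.0%) and 10 lower (27.8%, against 17.5% of all genes), with a median of 0.01. The counts were 3 and 8 without the muscle-rich libraries and 6 and 6 without the adipocyte-rich libraries. Among the lower were Gdf5 and Gdf11, BMP and activin-type ligands, which fell by 1.06 and 0.81, and Chrdl2, a BMP antagonist, which fell by 1.4. Of 27 immediate early genes, 11 were lower (40.7%) and 4 higher, including Egr1, a zinc finger factor of the serum response (-0.72), Myc (-0.55) and Dusp2, a nuclear phosphatase of MAP kinases (0.61). Without the muscle-rich libraries 10 were lower and 1 higher, and without the adipocyte-rich libraries 5 and 3.

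Genes moved unevenly over chromosomes. On chromosome 10, 376 of 715 genes tested were lower (52.6%, against 17.5% of all genes) and 61 higher. The median difference of its genes from the untreated mean, over genes with a mean rlog of at least 8, was -0.29 to -0.24 in the VE822 libraries and -0.02 to 0.01 in the untreated libraries, so that every VE822 library lay lower. On chromosome 6, 289 of 789 genes were higher (36.6%) and 41 lower, with library medians of 0.11 to 0.16 against -0.10 to 0.03. Of 20 chromosomes, 7 had library medians that did not overlap, chromosomes 6 and 17 higher and chromosomes 2, 8, 10, 12 and 19 lower in VE822 libraries. With each library's chromosome medians removed, 3257 genes were higher and 2037 lower, a share of 61.5% higher against 49.5%. The cause of these shifts was not tested.

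**Figure D5:**
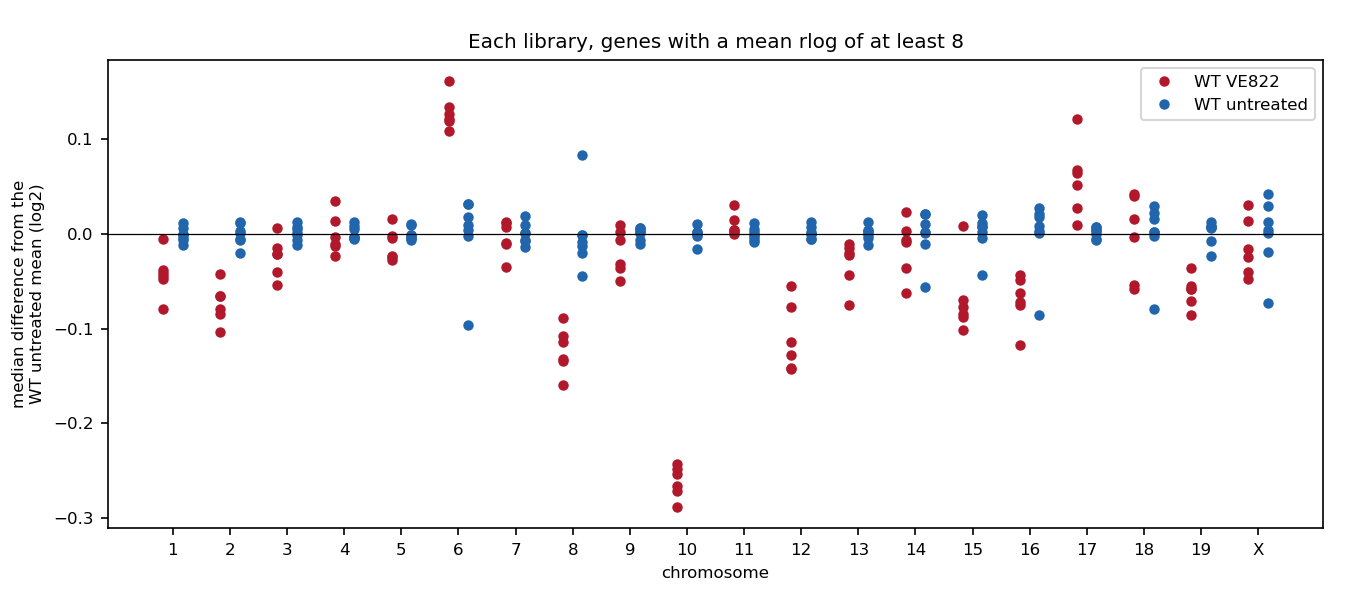
Median difference from the mean of the WT untreated libraries (y axis, log2) over the genes of each chromosome (x axis) with a mean rlog of at least 8. Each point is 1 library, VE822 red on the left and untreated blue on the right. The VE822 libraries lie at -0.29 to -0.24 on chromosome 10 and at 0.11 to 0.16 on chromosome 6.

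Calls also differed by gene span and level. Protein-coding genes were split into 4 equal groups by their span on the genome. The group with the shortest spans (up to 10.2 kb) had 21.2% higher and 12.8% lower, and the group with the longest (from 55.6 kb) had 17% higher and 24.8% lower. Of 4 equal groups of all genes by level, the lowest had 22.4% higher and 4.75% lower, and the highest 13.9% and 25.5%. Of 372 lincRNA genes tested, 24.7% were higher and 7.26% lower. Span and level were not separated from one another here.

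The same treatment label was compared under the SETD2 KD label, in 11 other libraries. There 3540 of the 15916 genes tested passed. Of these, 2605 were also called in the same direction under the WT label (47.1% of the WT calls, 73.6% of the KD calls) and 0 in the opposite direction. Of all genes tested, 34.7% were called under the WT label. The difference of the VE822 effect between the genotype labels passed for 0 genes in limma (smallest adjusted p = 0.424), with 1452 genes (9.12%) at an unadjusted p under 0.05. Igf2 differed by 4.34 under the WT label and by 4.14 under the KD label, where 1 of the 5 VE822 libraries, at 6.37, lay within the range of the untreated libraries, 5.83 to 6.63. The differences under the WT and KD labels were -1.39 and -1.67 for Slc16a4, -2.82 and -2.58 for Cyp2f2, and -0.84 and -0.91 for Krt18. Ccl17 rose by 1.22 under the WT label and had a difference of 0.33 (adjusted p = 0.216) under the KD label, and Hmgcs1 fell by 0.49 and had a difference of -0.10 (adjusted p = 0.453), but the test of the difference between labels did not pass for either gene.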

How the data were processed

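RNA sequencing of 24 Renca tumour libraries was used, 13 of them in the comparison reported. The authors deposited regularised log values (rlog, log2 scale), made over the 24 libraries together, with 1 row per Ensembl gene, per the file's name. FastQC, TopHat, HTSeq, DESeq2 and GRCm38 are named, per the submitters' processing notes. Versions, annotation and strandedness are not given in these sources. Counts and depth cannot be read from rlog values, so the counting error of low genes is unknown.

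Of 46078 rows, 16906 were 0 throughout, and the 15916 whose rlog averaged 3 or more entered limma 3.58.1 in R 4.3.3. The model held 4 group means over all 24 libraries, with empirical Bayes and a mean-variance trend, and Benjamini-Hochberg adjusted p-values (threshold 0.05). Python 3.11.15, pandas 2.3.3 and matplotlib 3.10.9 were used for tables and plots. The fit was tested on simulated data. Names and coordinates come from GENCODE vM21 by Ensembl identifier, matching 99.59% of genes tested. Promoter windows come from RefSeq (GRCm38.p6).

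Members of the comparison and all gene lists were chosen with earlier results of these data known. The genes named are those of the drug's pathway, Setd2 and Igf2, the 25 largest separated changes in each direction, the 10 smallest p, and up to 4 members of each list, from which the text takes a part. Markers of the line are also given, and some genes that the rule names are not reported here. Replicate numbers follow the order of the samples and pair nothing. Alternatives were the choice of libraries, filter, scaling, weights and empirical Bayes settings, muscle transcripts as a covariate, and leaving out libraries. The 3 fits on Y-linked transcripts and the fit without the 5 adipocyte-rich libraries were chosen after seeing the data.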

Additional observations from a re-analysis of the deposited data

Results flagged for a closer look

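Of 238 sets of values, 1 gene in 1 group each, 17 held a library that stood apart from the rest of its group, where chance gives about 1 in 20. That rate is only a rough guide, because the sets share libraries and the genes were named largely by their values. Of the 17, 11 were in untreated replicate 1. In that library the immune genes stood high: Cd3e at 5.52 (others 4.48 to 4.83), Ciita at 8.41 (7.06 to 7.62), Gbp4 at 8.36 (6.61 to 7.13), Iigp1 at 11.21 (8.39 to 8.97), Cxcl9 at 8.97 (6.32 to 6.65) and Pdcd1 at 5.83 (4.51 to 4.97). Cgas at 6.28 (5.77 to 5.98), Gdf11 at 8.76 (8.22 to 8.43) and Ptgis at 5.34 (4.37 to 4.74) were also high there, and Ptprr at 6.69 (7.26 to 7.40) and Stard4 at 11.45 (11.69 to 11.86) low.

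Among the other untreated libraries, Ramp2 was low in replicate 2 at 12.97 (13.14 to 13.25), Krt23 high in replicate 3 at 4.21 (3.61 to 3.86) and Col1a1 low in replicate 6 at 11.51 (13.06 to 13.73). Among VE822 libraries, Pou3f3 was high in replicate 5 at 7.96 (7.01 to 7.29), and in replicate 6 Epcam was low at 6.75 (7.25 to 7.37) and Fads2 high at 11.80 (11.41 to 11.55).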

How the results depend on the processing

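The count of 5530 called genes stayed between 4081 and 5942 under the other filters, scalings, weights, covariates and empirical Bayes settings, and ranged from 4857 to 5672 with 1 library left out (2374 to 2836 higher, 2465 to 2836 lower). It moved by over 1.5 times in 4 fits with fewer libraries: 1088 (486 higher, 602 lower) with Y-linked transcripts, 3353 (1647 and 1706) without them, 3418 (1637 and 1781) without the muscle-rich libraries and 3101 (1493 and 1608) without the adipocyte-rich libraries. Separated genes, 2243 in all libraries and 2291 to 2675 with 1 left out, numbered 5027, 5514, 3748 and 4101 in these fits, where fewer libraries need to be separated. The share of calls that were higher was 61.5% with chromosome medians removed and 43.1% after quantile normalisation, against 49.5%. The difference of the effect between genotype labels passed for 0 genes under every alternative run.

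Of 114 called genes named here, 112 kept their call whichever library was left out, the exceptions being Chek1 and Iigp1. The genes were named largely by their values in these same libraries, so this agreement is largely built in. Iigp1 alone changed sign (-0.11 without Y-linked transcripts). Calls were lost for 38 within the libraries with and 20 within those without Y-linked transcripts. Without the muscle-rich libraries 13 were lost: Chek1, Atm, Tpsb2, Iigp1, Eda2r, Mertk, Dgat2, Fas, Col1a1, Cdh16, Pdcd1, Krt19 and Krt20. Without the adipocyte-rich libraries 9 were lost: Igf2r, Mrc1, Mertk, Adm, Col1a1, Hpgds, Pax8, Cdh16 and Cyp11a1. The causes were not tested. No paired analysis was possible because the replicate numbers follow the sample order and pair no libraries across groups.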

Other observations

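Ion channel, steroid and contractile genes not described above also separated the groups. Kcnh2, the potassium channel of cardiac repolarisation, was at 7.77, 8.20 and 8.53 (lowest, median, highest) in VE822 libraries, against 5.99, 6.37 and 6.45 in untreated libraries (1.90 ± 0.28, adjusted p = 2.00e-05). Of 26 potassium channel genes tested, 7 were higher (26.9%, against 17.2% of all genes) and 2 lower, with 4 and 2 without the muscle-rich libraries and 5 and 0 without the adipocyte-rich libraries. Cyp11a1, which makes pregnenolone from cholesterol, was at 10.56, 11.49 and 12.40 in VE822 libraries, against 9.21, 10.05 and 10.23 (1.55 ± 0.39, adjusted p = 0.00372), and its difference did not pass within the libraries with Y-linked transcripts (1.37, adjusted p = 0.169). Sfrp5, a secreted WNT antagonist, was at 8.80, 9.52 and 10.33, against 7.13, 7.40 and 7.80 (2.10 ± 0.37). Myom2, an M-band protein of striated muscle, was at 7.56, 7.87 and 8.39, against 4.94, 5.23 and 5.66 (2.72 ± 0.32), and the difference was 2.79 without the muscle-rich libraries. The groups of these 4 genes did not overlap.

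Among immune checkpoints, 14 of 20 were higher (70.0%, against 17.2% of all genes) and 0 lower. The higher count was 5 without the muscle-rich libraries and 9 without the adipocyte-rich libraries. It was 8, with 0 lower, within the libraries with Y-linked transcripts and 2, with 1 lower, within those without. Cd276, a B7 family ligand found on tumour cells, was at 10.05, 10.28 and 10.66 in VE822 libraries, against 9.36, 9.58 and 9.75 in untreated libraries (0.77 ± 0.09, no overlap), with differences of 0.68 and 0.93 within the libraries with and without Y-linked transcripts. Pdcd1, the receptor PD-1 of T cells, overlapped between the groups, with differences of 1.58 (adjusted p = 0.0421) and 0.09 (adjusted p = 0.888) within those sets. Of 31 mitotic spindle genes, 8 were higher (25.8%) and 0 lower, led by Spc24, a kinetochore subunit (0.43), and the count was 5 without VE822 replicate 3, untreated replicate 3 or 5, or the muscle-rich libraries, and 2 without the adipocyte-rich libraries.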
